A study of Homo sapiens with 6 samples.

Results

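The HSP70 and HSP90 chaperones and their nearest partners were examined as 10 genes chosen by symbol, out of 60564 gene rows in the table: HSPA8, HSPA1A, HSPA1B, HSPA2, HSPA4, HSPA9, HSPH1, HSP90AA1, HSP90AB1 and DNAJB1. All 10 were found, and 9 had enough reads to be tested. RNA-seq libraries came from A2780, a human ovarian cancer cell line, with 3 libraries labelled GPT2si and 3 labelled GPT2sinc. The labels give no dose, time or passage and do not spell out si and sinc. The series title names a deficiency of GPT2, the mitochondrial alanine aminotransferase. Both groups are the same cell line. The labels do not say that the 3 libraries of a group are separate cultures, so each p-value is set against a spread that may be no more than technical.

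HSP70 chaperones bind exposed hydrophobic stretches of client proteins and release them in a cycle driven by ATP. J-domain proteins start the cycle by speeding up ATP hydrolysis, and exchange factors, among them the HSP110 proteins, end it by removing ADP. HSP90 takes over partly folded clients such as kinases and steroid receptors, with co-chaperones that set its own ATP cycle. The inducible genes of the set are driven in stressed cells by HSF1, a transcription factor that binds repeats of the letters GAA in alternating direction, the heat shock element.

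Such repeats were looked for in the 250 bases before each annotated start site, in the RefSeq promoter table on GRCh38.p14, which holds 15 windows for the 10 genes. A match of 3 units was GAANNTTCNNGAA or its reverse complement TTCNNGAANNTTC, N being any base. A match of 2 units was GAANNTTC or TTCNNGAA, each its own reverse complement, and every match of 3 units also holds matches of 2 units. Matches of 3 units were present for HSPA8, HSP90AA1 and HSP90AB1, so 3 of 10 genes, against 0.557% of all gene symbols with a window. By window this was 3 of 15, against 0.441% of all 35116 windows. At least 2 units were present for these and for HSPA1A, HSPA1B and DNAJB1, so 6 of 10 genes, against 14% of all gene symbols, and in 6 of 15 windows, against 11.6% of all windows. The matches are shown because they are a sequence feature that these 6 of the 10 genes share. Matching letters are in capitals and read 5′ to 3′ on the strand of the gene.
HSPA8, chr11:123062346-123062374, minus strand: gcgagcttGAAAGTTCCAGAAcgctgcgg
HSPA8, chr11:123062171-123062199, minus strand: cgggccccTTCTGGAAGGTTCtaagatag
HSP90AA1, chr14:102087112-102087140, minus strand: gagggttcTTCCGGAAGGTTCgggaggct
HSP90AB1, chr6:44247770-44247798, plus strand: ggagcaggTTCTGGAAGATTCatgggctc
HSP90AB1, chr6:44247823-44247851, plus strand: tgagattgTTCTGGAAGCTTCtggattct
HSPA1A, chr6:31815429-31815452, plus strand: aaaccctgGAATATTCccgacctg
HSPA1B, chr6:31827625-31827648, plus strand: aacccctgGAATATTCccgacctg
DNAJB1, chr19:14518459-14518482, minus strand: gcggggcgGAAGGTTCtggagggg
DNAJB1, chr19:14518429-14518452, minus strand: gggctctgGAAGCTTCcgccggac

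The HSPA8 matches begin 230 and 55 bases before the start site, and the HSP90AA1 match 88 bases before the start site nearest to it. The HSP90AB1 matches begin 165 and 112 bases before the most downstream of its 3 annotated start sites, and the windows of its other start sites held no match. The printed HSPA8 and HSP90AA1 stretches lie inside exons annotated in GENCODE 29, and the gene, strand and transcript of these exons were not looked up. A match of letters is no proof of binding, and HSPA2, HSPA4, HSPA9 and HSPH1 had no match in these windows. Units that depart from the exact letters were not counted, so fewer units here need not mean a weaker element.

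GPT2 itself, the gene the series is about, had 4714, 3677 and 4416 counts in GPT2si libraries 1 to 3, against 10807, 10683 and 9516 in GPT2sinc libraries 1 to 3. Total counts ran from 41931162 to 50882329 in GPT2si and from 43351984 to 45508530 in GPT2sinc, and the 10 genes took 0.461% to 0.532% of them in GPT2si and 0.435% to 0.467% in GPT2sinc. Levels below are in CPM, the count of a gene scaled to a common library size, here with TMM factors that allow for differences in library makeup. At these totals, and before TMM factors, a floor of 3 counts equals 0.0590 to 0.0715 CPM, which covers counting error only. Mitochondrially encoded mRNAs took 4.37%, 5.08% and 4.46% of counts in GPT2si 1 to 3 and 4.54%, 3.38% and 4.14% in GPT2sinc 1 to 3. Of the markers of ovarian and epithelial lines, KRT8 and KRT18 were at 38.4 and 31.2 CPM in GPT2si and 31.7 and 24.7 CPM in GPT2sinc. EPCAM was at 1.61 CPM in GPT2si and 1.94 CPM in GPT2sinc, and none of these 3 genes passed the test. PAX8, WT1, CDH1 and MUC16 were each at 0.251 CPM or less in GPT2si and 0.190 CPM or less in GPT2sinc. Of the mesenchymal markers, vimentin (VIM) was at 12368 CPM in GPT2si and 12690 CPM in GPT2sinc. CDH2 was at 32.8 and 30.7 CPM in GPT2si and GPT2sinc, and FN1 was low, at 1.63 and 1.85 CPM. Fibroblast markers summed to 393 to 407 CPM in GPT2si libraries and 360 to 390 CPM in GPT2sinc libraries. Of the leukocyte markers, PTPRC averaged 0.0398 CPM in GPT2si and 0 CPM in GPT2sinc, CD3E was at 0 in each library, and CD68 was at 5.75 ± 2.05 CPM in GPT2si and 4.62 ± 0.621 CPM in GPT2sinc (SD, n = 3 each). Endothelial markers summed to 0 to 0.154 CPM in GPT2si and 0.0430 to 0.299 CPM in GPT2sinc.

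Among these chaperones, 2 genes of cytosolic HSP70 were called higher. For HSPA1B the call was narrow (adjusted p = 0.0468, edgeR), and HSPA1A, nearly the same in sequence, just missed it (0.0509, edgeR). Reads may be shared between HSPA1A and HSPA1B, so they are not separate results in the counts that follow. Of the 9 tested genes, HSPA8 and HSPA1B were higher in GPT2si and 0 were lower by the quasi-likelihood test of edgeR (Benjamini-Hochberg adjusted p under 0.05 over 17006 tested genes), where 1.42% of all tested genes were called, 0.576% higher and 0.841% lower. Before adjustment, 4 of the 9 were higher at p under 0.05 and 0 lower, against 10.3% and 9.27% of all tested genes, and 0 were lower by DESeq2 or limma-voom, which called 6.23% and 1.02% of all tested genes in either direction. All GPT2si libraries lay above all GPT2sinc libraries for the same 4 genes, HSPA8, HSPA1A, HSPA1B and DNAJB1, a separation seen for 14.9% of all tested genes (28.2% with either group on top). The median log2 fold change of the 9 genes was 0.30, against −0.01 over all tested genes. In RNA from bulk cells, a rise in each cell and a larger share of cells with a high level cannot be told apart.

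**Figure D1:**
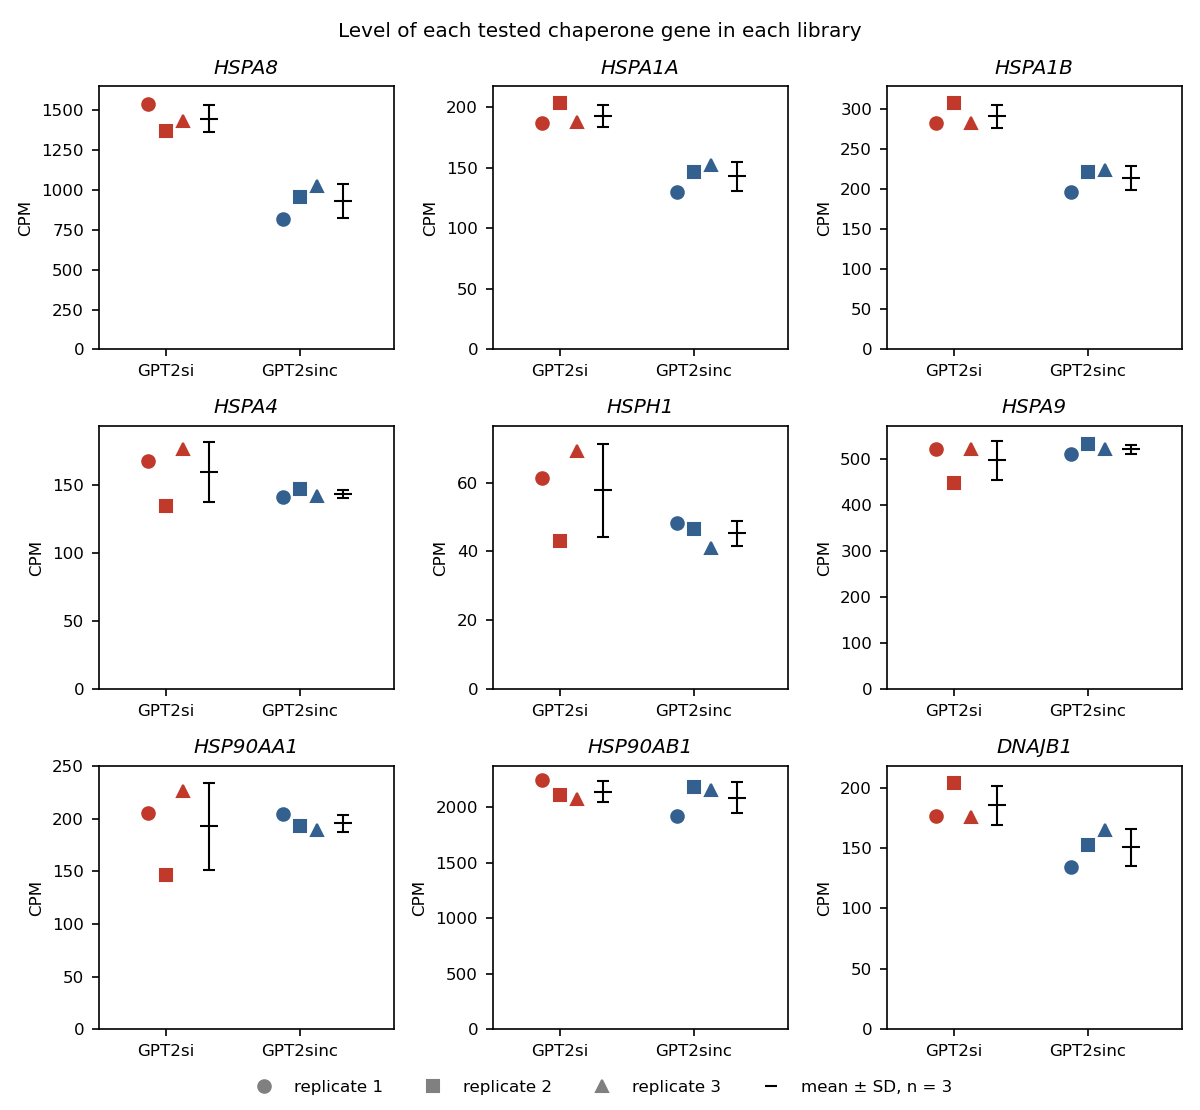
Level in CPM (linear axis from 0) of the 9 tested chaperone genes in the GPT2si libraries and the GPT2sinc libraries, 1 point per library with the replicate number as its shape, and the mean ± SD (n = 3) as a bar. HSPA8, HSPA1A, HSPA1B and DNAJB1 show no overlap between the groups and are lowest in GPT2sinc 1. GPT2si 2 is the lowest GPT2si library for HSPA4, HSPH1, HSPA9 and HSP90AA1.

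HSPA8 (ENSG00000109971; chromosome 11, 123057489 to 123063230 on the minus strand of GRCh38 in GENCODE 29, as for the other positions below) encodes HSC70, the constitutive cytosolic HSP70 that also strips clathrin from vesicles. It was at 1539, 1369 and 1435 CPM in GPT2si 1 to 3, against 818, 956 and 1027 CPM in GPT2sinc 1 to 3. The lowest GPT2si library was thus well above the highest GPT2sinc library. This was a 1.55-fold rise (log2 fold change 0.63, SE 0.10; 95% interval 0.41 to 0.86; adjusted p = 0.0250, edgeR), rank 74 by p among the tested genes. The call was lost without GPT2si 1 (adjusted p = 0.131, edgeR), without GPT2sinc 1, 2 or 3 (0.105, 0.141 and 0.0720) and with no low-count filter (0.0604). Log2 fold changes were 0.55 to 0.71 in these edgeR fits. In the same order, these fits called 0.0115%, 0.0231%, 0.00577%, 0.0287% and 0.154% of all genes they tested. The call was kept without GPT2si 2 (adjusted p = 0.0112, edgeR) and without GPT2si 3 (0.0487), in fits that called 4.77% and 0.626%. With all libraries it was kept in 9 of 10 other settings, among them the DESeq2 Wald test (adjusted p = 6.35e-06) and limma-voom (0.0272). Another 17 processed copies of HSPA8 in the table had 80 counts together, 0.0248% of the HSPA8 count.

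HSPA1A and HSPA1B, neighbours on chromosome 6 (ENSG00000204389, 31815464 to 31817946, and ENSG00000204388, 31827735 to 31830255, both on the plus strand), encode the heat-inducible HSP70. HSPA1B was at 283, 308 and 282 CPM in GPT2si 1 to 3, against 197, 222 and 223 CPM in GPT2sinc 1 to 3, and the groups did not overlap. Its log2 fold change was 0.44 (SE 0.09; 95% interval 0.25 to 0.63; adjusted p = 0.0468, edgeR). HSPA1A was at 187, 203 and 187 CPM in GPT2si 1 to 3, against 130, 146 and 152 CPM in GPT2sinc 1 to 3. Its log2 fold change of 0.43 (SE 0.09; 95% interval 0.23 to 0.63; adjusted p = 0.0509, edgeR) fell just short of the threshold. The genes are nearly the same in sequence, and no source used here tells how reads that fit both were placed, so their separate values are uncertain. Summed into 1 row they were at 483 ± 24.0 CPM in GPT2si and 357 ± 26.5 CPM in GPT2sinc (SD, n = 3 each), a 1.36-fold rise (log2 fold change 0.44, SE 0.09; adjusted p = 0.0476, edgeR).

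All of these inducible HSP70 values lay close to the threshold, so that single choices moved them across it. HSPA1B did not pass without GPT2si 1 or 3 (adjusted p = 0.174 and 0.0602), without GPT2sinc 1, 2 or 3 (0.236, 0.185 and 0.138), with no low-count filter (0.104) or with DESeq2 size factors in edgeR (0.0532). The summed row was lost in the same fits. Its edgeR adjusted p was 0.174 and 0.0603 without GPT2si 1 or 3, and 0.235, 0.192 and 0.137 without GPT2sinc 1, 2 or 3. It was 0.110 with no low-count filter and 0.0564 with DESeq2 size factors. The fits without GPT2si 1 or a GPT2sinc library called at most 0.0287% of all genes they tested. HSPA1A passed without GPT2si 2 (adjusted p = 0.0238, edgeR), by the DESeq2 Wald test (0.00269) and with offsets for GC content and transcript length (0.00898, edgeR). With all libraries, HSPA1A passed in 6 of 9 other settings and HSPA1B in 7 of 9. Log2 fold changes stayed between 0.37 and 0.48 for HSPA1A and between 0.39 and 0.48 for HSPA1B over the fits that left out 1 library.

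The ratio of HSPA8 counts to the summed HSPA1A and HSPA1B counts was 3.28, 2.68 and 3.06 in GPT2si 1 to 3, against 2.51, 2.60 and 2.73 in GPT2sinc 1 to 3. GPT2si 2 lay within the range of the GPT2sinc libraries, and the log2 difference of 0.20 had an exact two-sided permutation p = 0.2, where 0.1 is the smallest p that 3 against 3 allows. HSPA2 (ENSG00000126803, chromosome 14), an HSP70 best known from testis, had 0 counts in each GPT2si library and 0, 0 and 2 counts in GPT2sinc 1 to 3. Both groups lie under the floor of 3 counts per library, so no fold change is given.

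DNAJB1 (ENSG00000132002; chromosome 19, 14514770 to 14529770, minus strand), a heat-inducible J-domain partner of cytosolic HSP70, was at 177, 204 and 175 CPM in GPT2si 1 to 3, against 134, 153 and 165 CPM in GPT2sinc 1 to 3. The groups did not overlap, but the gap between GPT2si 3 and GPT2sinc 3 was small. Its log2 fold change of 0.30 (SE 0.10; 95% interval 0.07 to 0.53) had an unadjusted p of 0.0156 and did not pass in edgeR (adjusted p = 0.157). With GC and length offsets it passed (0.27; adjusted p = 0.0426, edgeR). Its exons share 211 bases with those of TECR on the opposite strand, and those of HSP90AA1 share 197 with WDR20; no source used here names the strand setting of the counting.

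The HSP110 genes, exchange factors for HSP70, had wider spread in GPT2si. HSPH1 (ENSG00000120694; chromosome 13, 31134974 to 31162388, minus strand) was at 61.4, 42.9 and 69.1 CPM in GPT2si 1 to 3, against 48.2, 46.5 and 41.1 CPM in GPT2sinc 1 to 3. GPT2si 1 and 3 lay above all GPT2sinc libraries and GPT2si 2 lay among them (log2 fold change 0.35, SE 0.16; adjusted p = 0.264, edgeR). HSPA4 (ENSG00000170606; chromosome 5, 133051962 to 133106449, plus strand) was at 167, 134 and 176 CPM in GPT2si 1 to 3, against 141, 146 and 141 CPM in GPT2sinc 1 to 3. Here GPT2si 2 was the lowest of all 6 libraries (0.16, SE 0.11; adjusted p = 0.446, edgeR). Without GPT2si 2 both genes passed, HSPH1 with a log2 fold change of 0.51 (adjusted p = 0.0222, edgeR) and HSPA4 with 0.25 (0.0375), in a fit that called 4.77% of all genes it tested, against 1.42% with all libraries. HSPH1 was at 0.21 without GPT2si 3 (adjusted p = 0.447, edgeR) and HSPA4 at 0.08 (0.716).

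Neither HSP90 gene passed in any of the fits run. HSP90AB1 (ENSG00000096384; chromosome 6, 44246166 to 44253888, plus strand), the constitutive cytosolic HSP90, was at 2244, 2107 and 2072 CPM in GPT2si 1 to 3, against 1924, 2180 and 2153 CPM in GPT2sinc 1 to 3. The groups overlapped (log2 fold change 0.04, SE 0.09; adjusted p = 0.839, edgeR), and the 95% interval of −0.15 to 0.23 corresponds to folds of 0.899 to 1.17. HSP90AA1 (ENSG00000080824; chromosome 14, 102080738 to 102139699, minus strand), the inducible form, was at 206, 147 and 226 CPM in GPT2si 1 to 3, against 205, 193 and 189 CPM in GPT2sinc 1 to 3. GPT2si 2 was again the lowest library and GPT2si 3 the highest (−0.02, SE 0.14; 95% interval −0.34 to 0.29; adjusted p = 0.950, edgeR). The ratio of HSP90AA1 to HSP90AB1 counts was 0.0917, 0.0695 and 0.109 in GPT2si 1 to 3 and 0.106, 0.0886 and 0.0878 in GPT2sinc 1 to 3, with an exact two-sided permutation p = 0.9. The sign of both HSP90 fold changes turned in some fits, so neither has a direction. HSP90AB1 has 6 processed copies in the table with 0.394% of its count and HSP90AA1 has 5 with 0.538%.

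HSPA9 (ENSG00000113013; chromosome 5, 138553756 to 138575724, minus strand), the mitochondrial HSP70 mortalin, which pulls imported proteins into the matrix, was at 522, 448 and 523 CPM in GPT2si 1 to 3, against 512, 532 and 522 CPM in GPT2sinc 1 to 3. Again only GPT2si 2 stood below the other libraries. Its log2 fold change was −0.07 (SE 0.09; 95% interval −0.26 to 0.12; adjusted p = 0.687, edgeR).

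**Figure D2:**
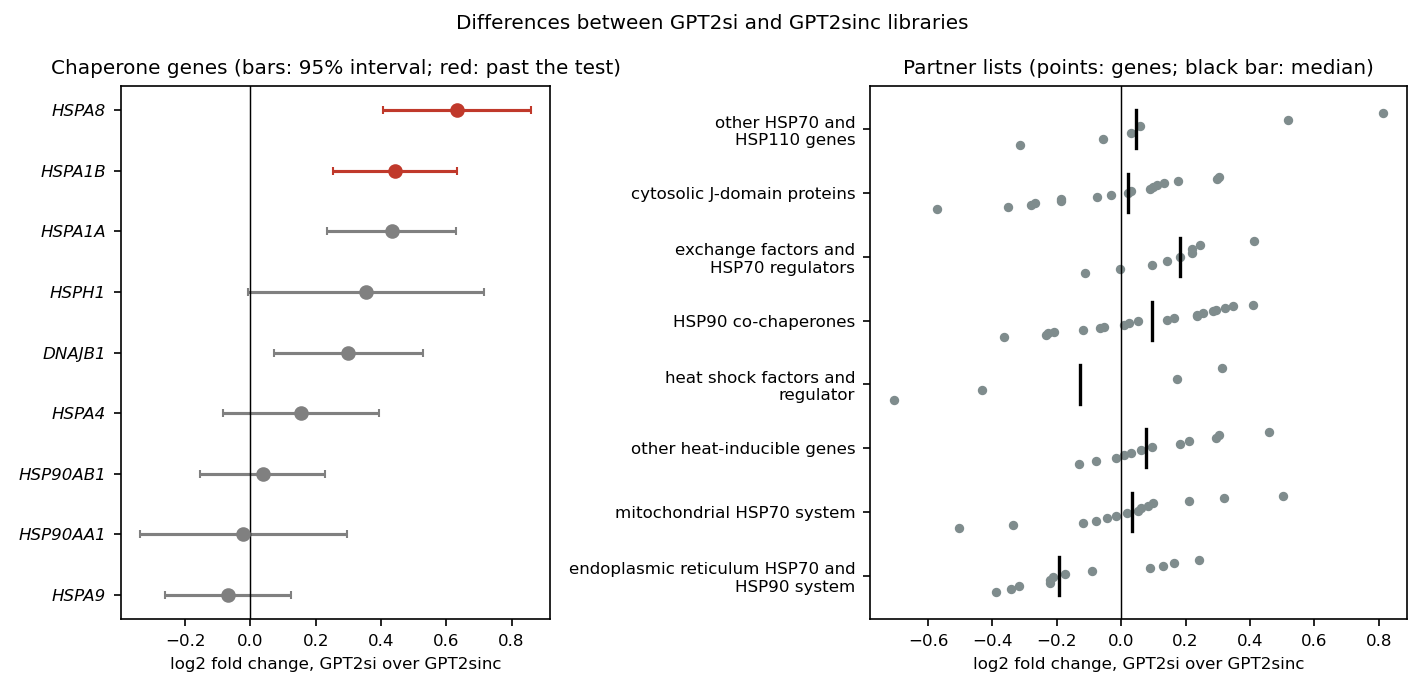
Left, log2 fold change of GPT2si over GPT2sinc for the 9 tested chaperone genes with the 95% interval of the edgeR fit, in red where the adjusted p was under 0.05. Right, log2 fold changes of the tested genes of 8 partner lists as points with the list median as a bar; HSPA8 (0.63) has the largest value among the chaperone genes, and 0 of the partner genes passed the test.

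Scaled by the length of the principal transcript, HSP90AB1 and HSPA8 were the most abundant of the set by far. In CPM per kilobase (kb), HSP90AB1 was at 801 ± 34.0 in GPT2si and 780 ± 52.6 in GPT2sinc, and HSPA8 at 588 ± 34.7 in GPT2si and 379 ± 43.0 in GPT2sinc (SD, n = 3 each). The order below them was HSPA1B (115 ± 5.79), HSPA9 (105 ± 9.13), DNAJB1 (81.9 ± 7.17), HSPA1A (77.6 ± 3.77), HSP90AA1 (57.0 ± 12.2), HSPA4 (33.0 ± 4.61) and HSPH1 (11.1 ± 2.60) in GPT2si. Neighbours whose ranges over GPT2si libraries met were DNAJB1 and HSPA1A. In GPT2sinc HSPA9 (110 ± 2.10) stood above HSPA1B (84.8 ± 5.93), in the reverse of their order in GPT2si on this length, and DNAJB1, HSP90AA1 and HSPA1A followed with 66.5 ± 6.85, 57.9 ± 2.40 and 57.5 ± 4.71 and ranges that met. The summed level of the set was 1947, 1812 and 1850 CPM per kb in GPT2si 1 to 3, against 1449, 1627 and 1649 in GPT2sinc 1 to 3. HSPA8 made up 31.4% ± 0.707 of that sum in GPT2si and 24.0% ± 1.19 in GPT2sinc, and HSP90AB1 42.8% ± 0.833 in GPT2si and 49.5% ± 0.648 in GPT2sinc (SD, n = 3 each). Divided by the length of all annotated exons instead, HSP90AB1 and HSPA8 stayed on top, at 719 and 299 CPM per kb in GPT2si and 700.0 and 193 in GPT2sinc. On that length HSPA1B stood above HSPA9 in both groups, at 115 and 60.3 CPM per kb in GPT2si and 84.8 and 63.3 in GPT2sinc, so the reversal was not seen.

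**Figure D3:**
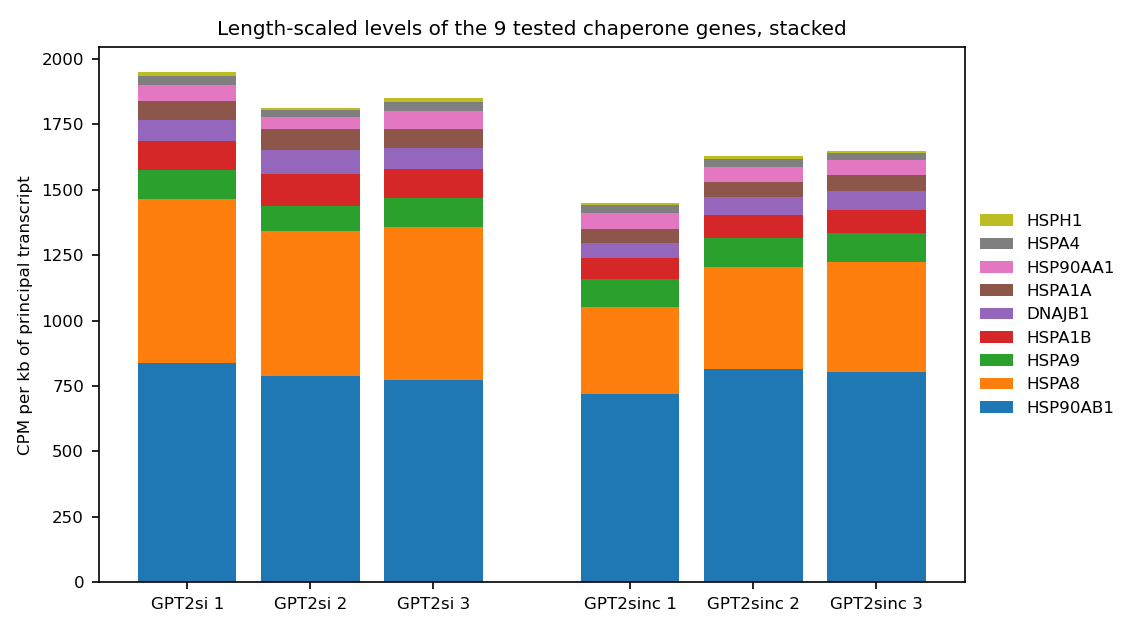
Stacked bars of the level of the 9 tested chaperone genes in CPM per kb of principal transcript in each library, GPT2si on the left and GPT2sinc on the right, from 0. HSP90AB1 is similar in height across libraries, while the HSPA8 segment is 556 to 625 in GPT2si and 332 to 417 in GPT2sinc.

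Spread among the GPT2si libraries went in part with base composition. On the log2 scale, GPT2si 2 lay below the mean of GPT2si 1 and 3 for all 6 tested genes with under 50% GC in their longest transcript, by 0.03 for HSP90AB1 (48.1% GC) up to 0.60 for HSPH1, the gene with least GC, and 0.56 for HSP90AA1 (45.2% GC). It lay above that mean for the 3 genes with more GC, by 0.12 for HSPA1A and HSPA1B (59.7% and 58.7% GC) and 0.21 for DNAJB1 (53.0% GC). A like trend was seen over all tested genes, whose median difference was −0.49 at up to 40% GC and −0.32 between 40% and 45%. It was −0.07 between 45% and 50%, 0.12 between 50% and 55%, 0.23 between 55% and 60% and 0.30 above 60%. HSP90AA1 thus lay well below the median of its own GC class. GPT2sinc 1 had the opposite trend against the mean of GPT2sinc 2 and 3. Its medians were 0.22 at up to 40% GC, −0.03 between 45% and 50%, −0.08 between 50% and 55%, −0.10 between 55% and 60% and −0.07 above 60%. On this measure GPT2sinc 1 was at −0.28 for HSPA8, −0.24 for DNAJB1, −0.20 for HSPA1A, −0.18 for HSPA1B and −0.17 for HSP90AB1, below their class medians. HSPA9 and HSPA4 were at −0.04 and −0.03, and HSPH1 and HSP90AA1 lay above the mean, at 0.14 and 0.10. With offsets for GC content and length in the edgeR fit, 6 of the 9 genes were higher and 0 lower, in a fit that called 11.9% of all genes it tested, 6.97% higher. These were HSPA8 (0.64, adjusted p = 0.00547, edgeR), HSPH1 (0.46, adjusted p = 0.00859), HSPA1B (0.41), HSPA1A (0.40), DNAJB1 (0.27) and HSPA4 (0.23, adjusted p = 0.0432). HSPA9, HSP90AA1 and HSP90AB1 were then at −0.0013, 0.0032 and 0.04 on the log2 scale and did not pass.

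**Figure D4:**
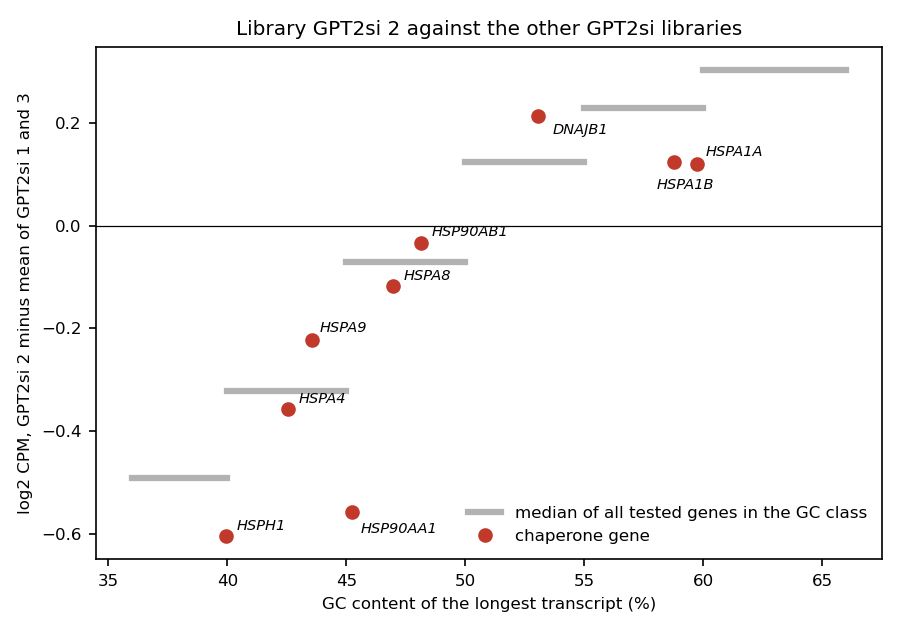
Difference in log2 CPM between GPT2si 2 and the mean of GPT2si 1 and 3 against the GC content of the longest transcript in percent, for the 9 tested chaperone genes (red points) and as the median of all tested genes per GC class (grey bars). The points run from −0.60 for HSPH1 to 0.21 for DNAJB1.

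The rest of the chaperone machinery was described by 8 lists that hold 93 genes, 6 of them in more than 1 list. Of 88 tested genes, 0 passed in the reported edgeR fit in either direction. The list counts below refer to that fit unless another test is named. With GC and length offsets, edgeR called 10 higher: AHSA1, CHORDC1, CRYAB, DNAJA1, DNAJA3, HSF1, HSPBP1, PPID, TIMM44 and TTC4. It called 6 lower: CLPX, DNAJB2, GRPEL1, HSF2, HSP90B1 and PIH1D1. The fit with offsets called 11.9% of all genes it tested. In the reported fit, unadjusted p-values under 0.05 were found for 15 higher and 8 lower genes, against 10.3% and 9.27% of all tested genes. The counts below given as unadjusted use this limit. DESeq2 called 4 higher and 3 lower, where it called 6.23% of all tested genes, and limma-voom called 0. Their median log2 fold change was 0.04.

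Of 17 tested J-domain proteins of the cytosol, 0 passed in edgeR (unadjusted, 2 higher and 1 lower; 0 and 1 by DESeq2, 0 by limma-voom), with a median of 0.02. DNAJA1, a cytosolic HSP70 partner, was at 127 ± 10.9 CPM in GPT2si and 103 ± 9.24 CPM in GPT2sinc (log2 fold change 0.30, SE 0.10). DNAJB12, of the endoplasmic reticulum membrane facing the cytosol, was at 0.30 (SE 0.12). DNAJB2, which passes clients to the proteasome, was at 58.0 ± 2.24 CPM in GPT2si and 74.0 ± 2.81 CPM in GPT2sinc (−0.35, SE 0.08; adjusted p = 0.0772, edgeR). DNAJB2 was the gene that passed in DESeq2.

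For exchange factors and other HSP70 regulators 0 of 9 passed (unadjusted, 1 higher and 0 lower; 0 by DESeq2 or limma-voom), with a median of 0.18. HSPBP1, an exchange factor, was at 0.41 (SE 0.16), the exchange factor BAG1 at 0.24 (SE 0.12) and BAG3, which links HSP70 to autophagy, at 0.18 (SE 0.09). Among other HSP70 and HSP110 genes 0 of 6 passed (1 and 0 unadjusted, 0 by DESeq2 or limma-voom). The strictly inducible HSPA6 was low, at 0.807 ± 0.168 CPM in GPT2si and 0.457 ± 0.0679 CPM in GPT2sinc (0.81, SE 0.32; adjusted p = 0.202, edgeR). HSPA12A was at 0.52 (SE 0.38) and HSPA13 at −0.31 (SE 0.19).

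Of 20 genes listed as HSP90 co-chaperones or their close partners 0 passed in edgeR (unadjusted, 7 higher and 1 lower; 2 and 0 by DESeq2, 0 by limma-voom), with a median of 0.10. TTC4, an adaptor between HSP70 and HSP90, was at 33.3 ± 2.74 CPM in GPT2si and 25.1 ± 3.12 CPM in GPT2sinc (0.41, SE 0.12), and the cyclophilin PPID was at 0.35 (SE 0.11). Both passed in DESeq2. FLCN, a tumour suppressor that was placed in this list, was at 0.28 (SE 0.09).

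Heat shock factors lay on both sides. HSF1, the main stress regulator, was at 99.5 ± 12.5 CPM in GPT2si and 80.1 ± 7.03 CPM in GPT2sinc (0.31, SE 0.11; adjusted p = 0.170, edgeR). HSF2 was at 23.6 ± 4.51 CPM in GPT2si and 31.8 ± 2.96 CPM in GPT2sinc (−0.43, SE 0.15) and HSF4 at −0.70 (SE 0.23). Of the 4 genes of this list, 0 passed in the reported edgeR fit, DESeq2 or limma-voom (1 higher and 2 lower unadjusted). With GC and length offsets in edgeR, HSF1 was called higher and HSF2 lower. Of 12 other heat-inducible genes 0 passed in edgeR (2 higher and 0 lower unadjusted, 1 and 0 by DESeq2, 0 by limma-voom), with a median of 0.08. The small heat shock protein CRYAB, which passed in DESeq2, was at 23.6 ± 3.75 CPM in GPT2si and 17.2 ± 0.841 CPM in GPT2sinc (0.46, SE 0.13). HSPE1, the mitochondrial co-chaperonin, was at 0.21 (SE 0.10). The median of 52 tested genes with a 3-unit heat shock element match was 0.03, with HSPA8 the 1 called higher and 0 called lower. With the chaperone genes of the set left out, 49 genes had a median of 0.02 and 0 were called. Of all tested genes with a promoter window, 0.613% were called higher, with a median of −0.0046.

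In the mitochondrial HSP70 system, which serves HSPA9, 0 of 14 genes passed in edgeR (2 higher and 2 lower unadjusted, 1 and 2 by DESeq2, 0 by limma-voom), with a median of 0.03. DNAJA3, the J-domain partner of HSPA9, was at 105 ± 15.8 CPM in GPT2si and 74.1 ± 1.86 CPM in GPT2sinc (0.50, SE 0.11; adjusted p = 0.0620, edgeR). GRPEL1, its exchange factor, was at 97.3 ± 7.25 CPM in GPT2si and 123 ± 4.44 CPM in GPT2sinc (−0.34, SE 0.09; adjusted p = 0.0867), and CLPX, the unfolding subunit of a matrix protease, at −0.50 (SE 0.14). In DNAJA3 all GPT2si libraries lay above the GPT2sinc libraries, and in GRPEL1 and CLPX all lay below. Of the 14 genes, 4 lay wholly above and 2 wholly below, against 14.9% and 13.2% of all tested genes. Without GPT2si 2, DNAJA3, GRPEL1 and CLPX passed in edgeR in the same directions, in the fit that called 4.77% of all genes. Each of the other 5 fits that left out 1 library called 0 of all partner genes, and at most 0.626% of all genes tested.

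In the endoplasmic reticulum, 0 of 12 genes passed in the reported edgeR fit (0 higher and 2 lower unadjusted, 0 by DESeq2 or limma-voom), with a median of −0.19. With GC and length offsets in edgeR, HSP90B1 was called lower. HSPA5, the HSP70 known as BiP, was at 1005 ± 69.9 CPM in GPT2si and 1172 ± 47.9 CPM in GPT2sinc (−0.22, SE 0.08). HSP90B1, the HSP90 of this compartment, was at 309 ± 67.3 CPM in GPT2si and 405 ± 44.1 CPM in GPT2sinc (−0.39, SE 0.15), and DNAJB9, a J-domain partner of HSPA5, was at −0.32 (SE 0.15).

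The genes whose profile over the 6 libraries was most like that of HSPA8 were not chaperones. Likeness was the root mean square difference of log2 CPM after centring each gene on its mean, over 10216 other protein-coding genes with a mean of at least 5 CPM. The nearest were PPARGC1B (0.06), PRSS23 (0.07), TRIAP1 (0.07), TMEM199 (0.08) and POLR1G (0.08), of which PRSS23 passed the test (log2 fold change 0.70, SE 0.14; adjusted p = 0.0493, edgeR). Within the set, HSPA1A and HSPA1B were nearest to HSPA8 (0.14 each), then DNAJB1 (0.20), and HSP90AA1 was farthest of the tested genes (0.40). These values are a description, since the 6 libraries share their group difference and their GC trends.

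**Figure D5:**
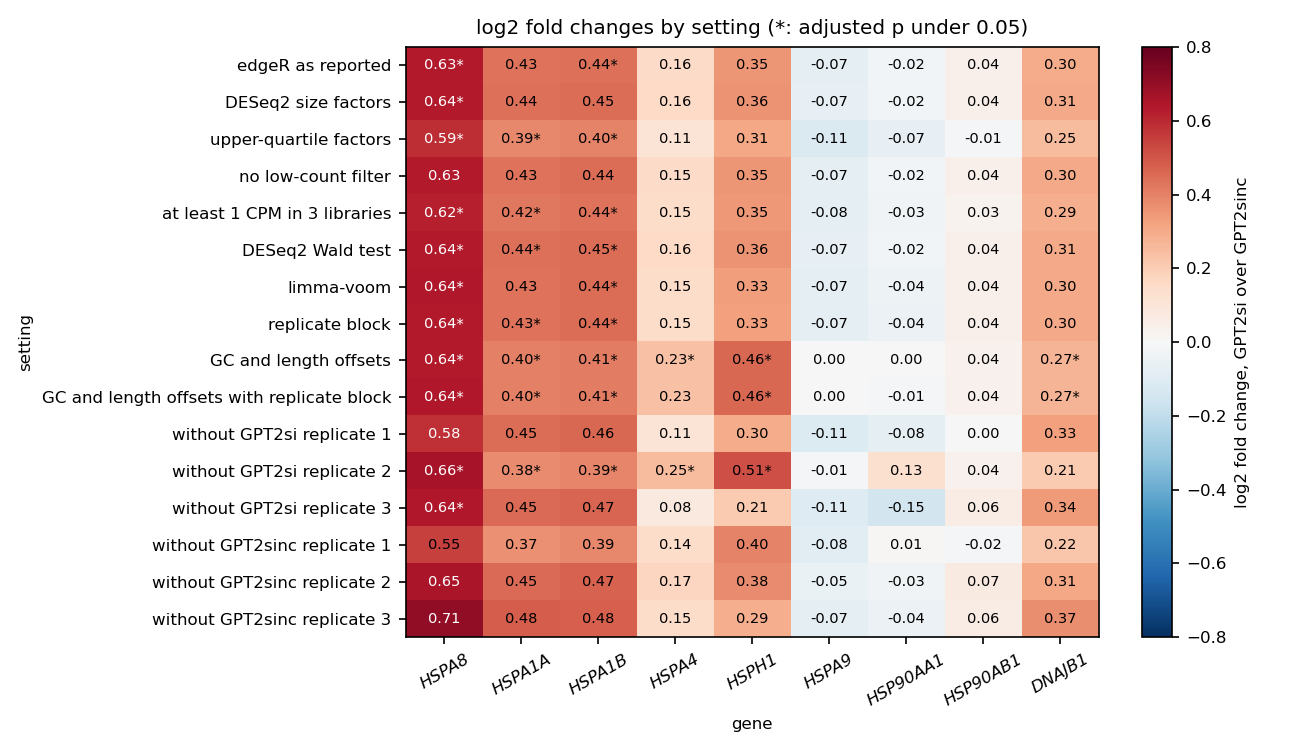
Log2 fold changes (number and colour) of the 9 tested chaperone genes (columns) under the reported edgeR fit and 15 other settings (rows), with a star where the adjusted p was under 0.05. HSPA8, HSPA1A and HSPA1B are at 0.37 or more in each setting shown, while the stars come and go with the libraries left out.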

How the data were processed

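Raw read counts, 1 row per Ensembl gene and 1 column for each of 6 libraries, were deposited by the authors without normalization; 0 columns were left unmapped. Per the labels' protocols, poly(A) RNA was made into dUTP strand-specific libraries. The tools listed, per the submitters' processing notes, are CASAVA and StringTie, with no role stated; aligner, counter, strand setting, build and annotation: not given in the sources used here. Gene symbols were found for 60545 of 60564 identifiers, 58457 of them in GENCODE 29.

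Groups were compared over all genes with edgeR 4.0.16 (glmQLFit and glmQLFTest, R 4.3.3), TMM factors, filterByExpr, group as the only term and Benjamini-Hochberg adjustment, with SE from the F statistic. Alternatives used DESeq2 1.42.0, limma 3.58.1 (voom), other factors and filters, a replicate block, loess offsets (span 0.5) for GC content and length (98.9% of tested genes), and each library left out. Members, lists and alternatives were chosen with earlier results of these data known. Named genes are the members, GPT2, up to 3 genes of smallest p per list and the 5 nearest HSPA8. Libraries of a group were not duplicates (chi-square per degree of freedom at least 8.04). A leukocyte marker is not reported here.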

Additional observations from a re-analysis of the deposited data

How the results depend on the processing

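The count of chaperone genes called higher, 2 in the reported edgeR fit, was 1 with DESeq2 size factors, 0 with no low-count filter, 6 with GC and length offsets and 5 with these offsets and a replicate block, and 0 to 5 when each library was left out; 0 were lower in any of these fits. Over all genes, 98 higher and 143 lower became 61 higher with DESeq2 size factors, 17 and 27 with no low-count filter, 569 and 491 with the DESeq2 Wald test, 1173 and 824 with GC and length offsets, 1111 and 748 with offsets and block, and 0 to 377 and 1 to 459 when each library was left out. The share of calls that were higher was 40.7% in the reported fit, 53.7% with DESeq2, and 58.7% and 59.8% with the offsets without and with the block. The summed HSPA1A and HSPA1B row was at 0.44 with DESeq2 size factors and 0.44 with no low-count filter, neither past the test, and at 0.38 to 0.48 when each library was left out.

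HSP90AB1 turned to −0.0071 with upper-quartile factors and lay between −0.017 and 0.072 when each library was left out, and HSP90AA1 turned to 0.0032 with offsets and lay between −0.15 and 0.13. HSPA9 turned to 4.4e-05 with offsets and block. The log2 difference of the HSP90AA1 to HSP90AB1 ratio lay between −0.234 and 0.0908 when each library was left out. Partner genes called were 10 higher and 6 lower with GC and length offsets (11.9% of all tested genes called), 11 and 5 with offsets and block (11%), 2 and 4 without GPT2si 2 (4.77%), and 1 and 1 with the block (3.28%). The replicate block gave 3 higher chaperone genes (HSPA8, HSPA1A and HSPA1B) and 252 higher and 306 lower over all genes. Same-numbered libraries share only a number: their deviations from group means correlated at 0.07, 0.10 and −0.16 over genes for numbers 1, 2 and 3, and not every library correlated best with its own number. The cause of these moves was not tested. Each fit without 1 library has fewer samples, though the fit without GPT2si 2 called more genes, 377 higher and 459 lower. The unfiltered fit adjusts over 28550 genes. At this depth HSPA2 lay under the floor of 3 counts per library.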
